A study of Homo sapiens with 6 samples.

Results

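The OAS and IFIT genes, *ISG15* and *SAMD9* are genes that cells switch on after interferon, and 10 of them were followed here in HEK293 cells after knockdown of the lncRNA *HSALNG0134318*. They were taken by symbol (*OAS1*, *OAS2*, *OAS3*, *OASL*, *IFIT1*, *IFIT2*, *IFIT3*, *IFIT5*, *ISG15* and *SAMD9*), and all 10 were among the 26485 gene names of the count table. HEK293 is an established cell line derived from human embryonic kidney. The knockdown group was 3 cultures transiently transfected with a Smart Silencer, which combines siRNAs with antisense oligonucleotides against *HSALNG0134318*. The control group was 3 cultures of the same line, described as NC with genotype WT. What, if anything, was transfected into them is not given in the sources used here. Replicates 1, 2 and 3 carried the culture labels KD-1, KD-4 and KD-5 in the knockdown group and NC-10, NC-11 and NC-1 in the control group. Each culture was sequenced once as poly(A) RNA, with 13900965 to 16869948 counts per culture. *HSALNG0134318* is not listed in the table, so the knockdown itself was not measured here.

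When type I interferon binds its receptor, JAK kinases activate STAT proteins, which join IRF9 to form the ISGF3 complex, and ISGF3 binds the interferon-stimulated response element in the promoters of its target genes. The OAS proteins sense double-stranded RNA and make 2′-5′-linked oligoadenylates, which set off the decay of RNA, while OASL lacks this enzymatic activity. IFIT proteins bind foreign RNA, in part by its 5′ end, and hold back its translation, ISG15 is a ubiquitin-like protein that is attached to other proteins, and SAMD9 restricts the translation and replication of poxviruses. Double-stranded RNA, including transfected RNA, can itself induce many of these genes.

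On hg38 (GENCODE release 44), *OAS1* (chr12:112905856-112933219), *OAS3* (chr12:112938051-112976460) and *OAS2* (chr12:112978395-113011723) stand in a row on the plus strand of chromosome 12, and *OASL* (chr12:121017763-121039246) lies farther along the same chromosome on the minus strand. *IFIT2* (chr10:89283694-89309271), *IFIT3* (chr10:89327307-89377473), *IFIT1* (chr10:89392546-89406487) and *IFIT5* (chr10:89414568-89421605) form a cluster on the plus strand of chromosome 10. *ISG15* (chr1:1001138-1014540) lies on the plus strand and *SAMD9* (chr7:93099513-93118023) on the minus strand. Exons of *LIPA*, on the opposite strand, overlap 65 exon bases of *IFIT2* and 94 of *IFIT3*, and the strand setting of the counting is not given in the sources used here.

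The sequences below are shown because they are the letters by which ISGF3 target promoters are usually recognized. RefSeq promoter windows (GRCh38.p14, from 250 bases before to 50 bases after a start site) were matched for 7 of the 10 genes, namely *OAS1*, *OAS3*, *IFIT1*, *IFIT3* (2 windows), *IFIT5*, *ISG15* and *SAMD9*. The core of the response element, GAAANNGAAA or its reverse complement TTTCNNTTTC, was searched as an exact match on both strands, and matches may overlap. It was found for 6 of the 7 genes, against 3.57% of all 35116 windows and 4.38% of all 27305 gene symbols with a window. The windows of *IFIT3* held 4 cores, of which 1 per window is shown, and that of *IFIT5* held 3, of which 2 are shown. Each line gives 30 bases in the direction of transcription, with the matched core in capitals and overlapping or adjacent cores joined.
*OAS3*, chr12:112938321-112938350, plus strand: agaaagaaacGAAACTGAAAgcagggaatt
*OAS3*, chr12:112938452-112938481, plus strand: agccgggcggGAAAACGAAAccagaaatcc
*IFIT1*, chr10:89392504-89392533, plus strand: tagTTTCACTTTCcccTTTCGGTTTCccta
*IFIT3*, chr10:89327865-89327894, plus strand: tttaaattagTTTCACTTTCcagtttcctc
*IFIT3*, chr10:89332468-89332497, plus strand: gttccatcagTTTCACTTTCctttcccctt
*IFIT5*, chr10:89414547-89414576, plus strand: agTTTCGATTTCttaagTTTCAGTTTCtga
*ISG15*, chr1:1013377-1013406, plus strand: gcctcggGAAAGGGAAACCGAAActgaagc
*SAMD9*, chr7:93118096-93118125, minus strand: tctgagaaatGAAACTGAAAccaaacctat
In *IFIT1* the cores began 116 and 103 bases before the start site, and in *ISG15* they began 113 and 107 bases before it and shared a GAAA. The cores read in the forward direction in *OAS3*, *ISG15* and *SAMD9* and in the reverse direction in the 3 IFIT genes. *OAS1* held no exact core in its window, and 4 matches when 1 mismatch was allowed in the 8 fixed bases, a looser rule that 33.0% of all windows met.

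Fewer counts were seen after knockdown for most of the 10 genes. *SAMD9*, *IFIT5*, *OAS3*, *IFIT3* and *IFIT2* were lower, by 0.51 to 1.43 on the log2 scale, and *OAS1*, *IFIT1* and *ISG15* had negative log2 fold changes that did not pass the test. *OAS2* and *OASL* had too few counts to enter the test. The control cultures did not form a tight group for these genes, since control replicate 2 (NC-11) was the highest of the 6 cultures in 9 of the 10 genes, and control replicate 3 (NC-1) lay within the range of the knockdown cultures in 4 of them. Counts were normalized by TMM to the mean effective library size and compared by the quasi-likelihood F test of edgeR, with a call where *P*, adjusted by Benjamini-Hochberg over all 14877 genes tested, was under 0.05. Of the 8 genes tested, 5 were called lower, against a background of 4.64% of all genes tested, and 0 were called higher (5.40%). DESeq2 and limma-voom also called 0 higher. At an unadjusted *P* under 0.05, all 8 were lower and 0 were higher, against 13.8% and 13.1% of all genes tested. All knockdown values lay below all control values in 6 of the 8, against 15.8% of all genes tested, and above them in 0 (16.4%). The median log2 fold change of the 8 was -1.06, against -0.02 over all genes tested. *OAS1* passed the filter on low counts through the control group, with 35, 121 and 13 read counts there. It had 8, 11 and 7 in the knockdown cultures, so its part in these counts and in the median is a description only. With at least 10 counts required in every culture, 7 genes were tested and 5 were called lower, beside 661 of all 13993 genes tested. The 10 genes were chosen with earlier results of these data known, and the 8 are not separate observations. Pearson's *r* between their log2 counts over the 6 cultures ran from 0.47 (*ISG15* with *SAMD9*) to 0.993 (*OAS1* with *IFIT1*). Values of *P* measure the spread between these cultures, and the study describes its 3 experiments per group as biologically independent. In RNA from whole cultures, fewer cells that express a gene and less RNA per cell cannot be told apart.

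**Figure D1:**
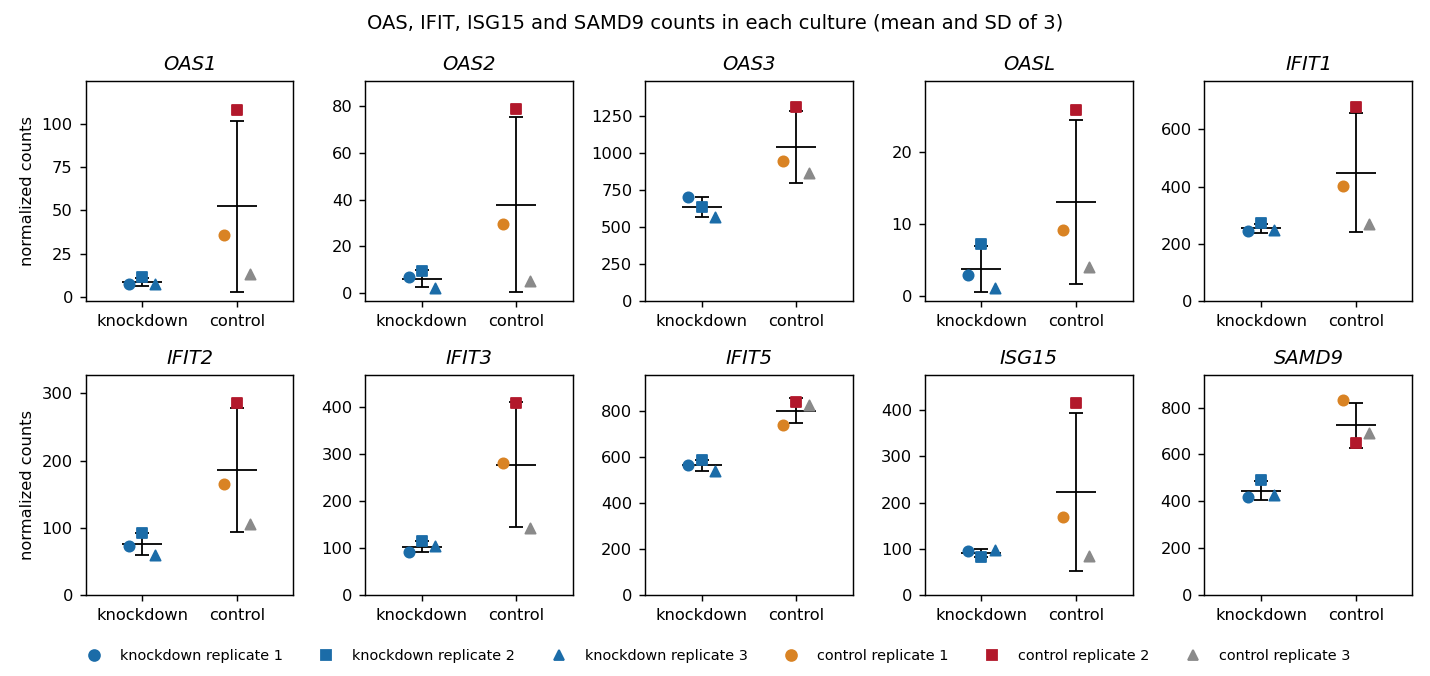
Normalized counts (vertical axes that start at or just below 0, each with its own scale) of the 10 genes in the 3 knockdown and 3 control cultures, with horizontal bars for group means and error bars for SD. The knockdown cultures are blue, control replicate 2 (red square) is highest in 9 panels, and in *IFIT5* the 3 controls lie close together above the knockdown cultures. In *SAMD9* the 3 controls also lie above the knockdown cultures but farther apart, from 650 to 833.

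*SAMD9*, whose protein restricts poxviruses, had 419, 491 and 425 normalized counts in knockdown replicates 1, 2 and 3 and 833, 650 and 691 in control replicates 1, 2 and 3. All knockdown values lay below all control values, and this was the only one of the 10 genes in which control replicate 2 was the lowest control. The fall from 725 ± 95.9 to 445 ± 40.0 normalized counts (SD, n = 3) was a log2 fold change of -0.70 (standard error, SE, 0.13, edgeR adjusted *P* = 0.0061). *SAMD9* was called in all 13 alternative settings, in which its log2 fold change lay between -0.78 and -0.59.

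*IFIT5* encodes an IFIT protein that binds single-stranded RNA ending in a triphosphate. It had 566, 585 and 540.0 normalized counts in the knockdown cultures and 740, 839 and 824 in control replicates 1, 2 and 3. The groups did not overlap, and the highest control was only 1.13 times the lowest. The log2 fold change was -0.51 (SE 0.10, edgeR adjusted *P* = 0.011). With 1 control left out it stayed between -0.56 and -0.47 and called, whereas the adjusted *P* was 0.0503 without knockdown replicate 1, 0.055 without knockdown replicate 2 and 0.081 without knockdown replicate 3.

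The other members of the IFIT cluster differed from *IFIT5* in how the controls were spread. *IFIT3*, which binds and stabilizes IFIT1, had 91.6, 115 and 104 normalized counts in the knockdown cultures and 281, 410 and 144 in control replicates 1, 2 and 3. All controls lay above the knockdown cultures, and control replicate 2 was 2.84 times control replicate 3. The log2 fold change was -1.43 (SE 0.33, edgeR adjusted *P* = 0.026). *IFIT2*, a partner of IFIT1 and IFIT3, had 73.3, 92.8 and 60.1 normalized counts in the knockdown cultures and 165, 287 and 106 in the controls. Its groups did not overlap either, with control replicate 3 the nearest control to the knockdown cultures. The log2 fold change was -1.31 (SE 0.33, edgeR adjusted *P* = 0.034). Both genes lost their call without control replicate 1 (adjusted *P* = 0.057 for *IFIT3* and 0.068 for *IFIT2*) and without any 1 knockdown culture (0.10 to 0.13 and 0.076 to 0.15). *IFIT1*, which recognizes RNA whose cap lacks a methyl group, had 244, 272 and 249 normalized counts in the knockdown cultures and 401, 677 and 270 in the controls. Control replicate 3 fell inside the range of the knockdown cultures, so the groups overlapped. Its log2 fold change was -0.82 (SE 0.29), which did not pass the test (edgeR adjusted *P* = 0.11).

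*OAS3*, the largest OAS enzyme, had 705, 638 and 570.0 normalized counts in the knockdown cultures and 946, 1316 and 865 in control replicates 1, 2 and 3. The groups did not overlap, with control replicate 2 at 1.52 times control replicate 3. *OAS3* was lower after knockdown (log2 fold change -0.71, SE 0.15, edgeR adjusted *P* = 0.015), and the adjusted *P* was 0.063 when knockdown replicate 2 was omitted and 0.082 when knockdown replicate 3 was. *OAS1*, the smallest OAS enzyme, had 7.71, 11.5 and 7.51 normalized counts in the knockdown cultures and 35.7, 108 and 13.4 in the controls. All controls lay above the knockdown cultures, but control replicate 2 was 8.07 times control replicate 3. Its log2 fold change of -2.56 (SE 0.73) had the largest size among the tested genes of the 10 and did not pass the test (edgeR adjusted *P* = 0.062). *OAS1* passed the filter on low counts through the controls, so this size is a description only.

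*OAS2* and *OASL* were kept out of the test by the filter on low counts. *OAS2* had 7, 9 and 2 read counts in the knockdown cultures and 29, 88 and 5 in control replicates 1, 2 and 3. Control replicate 3 lay within the knockdown range, and control replicate 2 was 15.3 times control replicate 3 after normalization. *OASL*, which enhances RIG-I signalling, had 3, 7 and 1 read counts in the knockdown cultures and 9, 29 and 4 in the controls, again with control replicate 3 inside the knockdown range. With no filter, the adjusted *P* from edgeR was 0.30 for *OAS2* and 0.13 for *OASL*, with log2 fold changes of -2.62 and -1.79.

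*ISG15* had 94.5, 82.4 and 97.7 normalized counts in the knockdown cultures and 169, 415 and 84.4 in control replicates 1, 2 and 3. Control replicate 3 lay inside the knockdown range and control replicate 2 was 4.92 times control replicate 3. Its log2 fold change of -1.29 (SE 0.51) did not pass the test (edgeR adjusted *P* = 0.15). Without control replicate 2 the log2 fold change was -0.47 (adjusted *P* = 0.21), and without control replicate 3 it was -1.67 (adjusted *P* = 0.014).

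The spread among controls was therefore set beside that of all genes. Control replicate 2 exceeded control replicate 3 more than 2-fold in 5 of the 8 tested genes of the family, namely *OAS1*, *IFIT1*, *IFIT2*, *IFIT3* and *ISG15*, and in 3.52% of all genes tested. Control replicate 1 exceeded control replicate 3 more than 2-fold in 2 of them, *OAS1* and *ISG15* (1.62% of all genes tested), and control replicate 2 exceeded control replicate 1 by as much in the same genes (3.09%). The controls stood in the order replicate 2, replicate 1, replicate 3 from the highest in 6 of the 8, and in 19.8% of all genes tested. On the log2 scale, with 0.5 added to each normalized count so that low counts give smaller ratios than the plain ones above, the ratio of control replicate 2 to control replicate 3 was 3.81 for *OAS2*, 2.97 for *OAS1*, 2.52 for *OASL* and 2.29 for *ISG15*, which lay above 99.97%, 99.91%, 99.80% and 99.70% of all genes tested. For *IFIT3*, *IFIT2* and *IFIT1* the ratio was 1.51, 1.43 and 1.33, above 98.92%, 98.72% and 98.35%. *OAS3*, at 0.61, lay above 89.90% of genes, while *IFIT5* (0.03) and *SAMD9* (-0.09) lay near the middle of the distribution. *OAS2* and *OASL* did not pass the filter on low counts, whereas the genes they were placed among did. The comparison was not matched for count level. These ratios compare single cultures and carry no test.

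By the ratio of the highest to the lowest culture, knockdown cultures were more alike than controls in all 8 tested genes. The difference was small in *IFIT5* (1.08 against 1.13) and *SAMD9* (1.17 against 1.28). The share of all genes tested with this pattern was not computed, so it cannot be called particular to these genes. The ratio of the highest to the lowest culture ran from 1.08 in *IFIT5* to 1.54 in *IFIT2* within the knockdown group for the 8 genes tested, and from 1.13 in *IFIT5* to 8.07 in *OAS1* within the control group. Relative to the knockdown mean, control replicate 2 was 12.1 times as high for *OAS1*, 4.54 times for *ISG15*, 3.96 times for *IFIT3* and 1.46 times for *SAMD9*. Control replicate 3 was 1.503 times the knockdown mean for *OAS1*, 0.92 times for *ISG15*, 1.39 times for *IFIT3* and 1.55 times for *SAMD9*. In *SAMD9* and *IFIT5* (1.46 times) control replicate 3 thus stood about as far above the knockdown group as the other controls did, and in *ISG15* it did not stand above it.

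Leaving out a control must move the log2 fold change most in genes with a wide spread among controls, so these values restate that spread. The log2 fold change stayed between -0.56 and -0.47 for *IFIT5* and between -0.78 and -0.59 for *SAMD9*. Without control replicate 2, *OAS1* moved from -2.56 to -1.45, *IFIT1* from -0.82 to -0.40, *IFIT2* from -1.31 to -0.85 and *IFIT3* from -1.43 to -1.04 on the log2 scale. The number of genes called lower stayed at 5, all of which were called with all cultures, while 8.21% of all genes tested were then called lower. Without control replicate 3 all 8 genes were called lower, beside 6.57% of all genes tested. *OAS1* was again in the test through its control counts. *OAS2* then passed the filter through its high counts in the remaining controls, so its log2 fold change of -3.12 is a description only. Without control replicate 1 it fell to 3, *OAS3*, *IFIT5* and *SAMD9*, beside 1.95% of all genes tested. Without knockdown replicate 1 it was 2, *OAS3* and *SAMD9*, and without knockdown replicate 2 or 3 it was 1, *SAMD9*. The share of all genes tested that were called lower also fell, to 1.67%, 1.63% and 1.54% without knockdown replicate 1, 2 and 3.

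**Figure D2:**
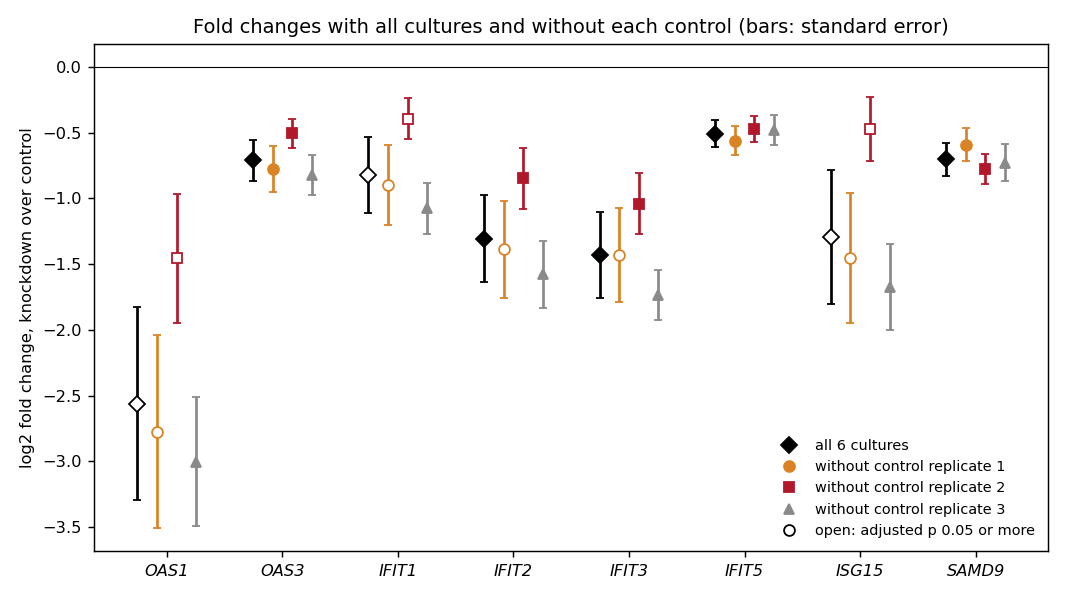
Log2 fold change of knockdown over control (vertical axis, bars for the standard error) of the 8 tested genes, with all 6 cultures and without each control in turn, with open symbols where the adjusted *P* from edgeR was 0.05 or more. Every estimate lies below 0, those of *IFIT5* stay between -0.56 and -0.47, and without control replicate 2 (red) *OAS1*, *IFIT1* and *ISG15* move toward 0 and are open.

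Levels were compared between genes as RPKM, that is counts scaled by the length of the MANE Select transcript and by the effective library size. The plan had named the length of all merged exons, and the order of genes depends on this choice. The MANE Select and merged lengths were 637 and 867 bases for *ISG15*, 4029 and 4369 for *IFIT5*, 6599 and 18045 for *OAS3* and 6806 and 6855 for *SAMD9*. The order below holds for the MANE Select lengths only. In the knockdown group *ISG15* had the highest level, 9.55 ± 0.84 RPKM (SD, n = 3), next to *IFIT5* at 9.30 ± 0.37, and the ranges of these genes overlapped. *OAS3* followed at 6.42 ± 0.68 RPKM, then *SAMD9* at 4.35 ± 0.39 and *IFIT1* at 3.94 ± 0.23, whose ranges overlapped each other, then *IFIT3* at 2.88 ± 0.32, *IFIT2* at 1.48 ± 0.32 and *OAS1* at 0.36 ± 0.09. *OAS2* and *OASL* were lowest, at 0.088 ± 0.053 and 0.076 ± 0.065 RPKM, with overlapping ranges. In the control group the mean of *ISG15* was 23.3 ± 17.9 RPKM, from 8.80 in control replicate 3 to 43.3 in control replicate 2, and the ranges of all neighbours in the order of means overlapped. *IFIT3* stood above *SAMD9* and *IFIT1* by its mean in the control group (7.74, 7.08 and 6.94 RPKM) and below both in the knockdown group.

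**Figure D3:**
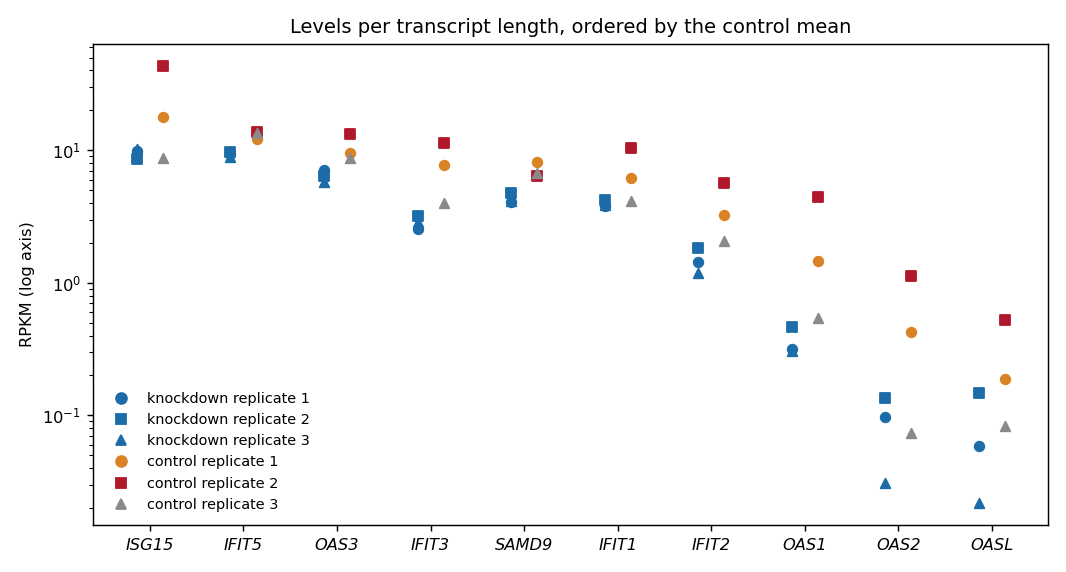
RPKM (log axis) of the 10 genes in each culture, ordered by the mean of the controls, with knockdown cultures in blue and control replicates 1, 2 and 3 in orange, red and grey. In the knockdown cultures *ISG15* and *IFIT5* are highest, near 9 RPKM, and *OAS2* and *OASL* are lowest, and the grey point of control replicate 3 falls among the blue ones in *ISG15*, *IFIT1*, *OAS2* and *OASL* and above them in the other 6 genes.

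Genes around the 10 were described from 8 lists with 120 genes in all (*IFIH1* stands in 2 lists). Of the 85 that were tested, 7 were called lower and 1 higher by edgeR, beside the 4.64% and 5.40% of all genes tested. DESeq2's Wald test called 15 of the 85 lower, beside 853 of all 14877 genes tested. The highest of the 6 cultures was control replicate 2 in 44 of the 85, against 27.0% of all genes tested. The number called lower was 27 of 92 without control replicate 3, beside 6.57% of all genes tested. It was 13 of 85 without control replicate 2 (8.21%) and 1 of 88 without control replicate 1 (1.95%). Without any 1 knockdown culture it was 1 of 90 to 92, beside 1.54% to 1.67% of all genes tested.

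Genes that lead from the interferon receptor to these promoters were described next. Of 15 tested genes for receptors and JAK-STAT signalling, 2 were called lower and 0 higher, against 4.64% and 5.40% of all genes tested. *IFNGR1*, a chain of the interferon-gamma receptor, was lower, with a log2 fold change of -0.44 (SE 0.10, edgeR adjusted *P* = 0.023). *IRF9*, the DNA-binding subunit of ISGF3, had 209, 193 and 217 normalized counts in the knockdown cultures and 337, 465 and 217 in the controls, a log2 fold change of -0.72 that did not pass the test (adjusted *P* = 0.069). For *STAT2*, another subunit, the log2 fold change was -0.22 (edgeR adjusted *P* = 0.19).

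The genes of interferon themselves were at or near 0. None of the 21 listed interferon genes was tested, and 11 of them had no count in any culture. *IFNB1*, encoding interferon beta, had 4 counts in control replicate 2, 1 in knockdown replicate 2 and 0 in the other cultures, and *IFNE*, encoding interferon epsilon, had 0, 3 and 5 counts in the knockdown cultures and 5, 6 and 1 in the controls. A count of 0 leaves room for up to 3 counts in a library of this depth by counting error alone.

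*PDE12*, a phosphodiesterase that degrades oligoadenylates, was not called, with a log2 fold change of 0.02 (edgeR adjusted *P* = 0.92). Of 7 genes for the conjugation of ISG15, 1 was called lower, against 4.64% of all genes tested. It was *TRIM25*, a ligase that also ubiquitinates RIG-I (-0.41, edgeR adjusted *P* = 0.031). All 7 had a negative log2 fold change, as did 7837 of all 14877 genes tested. Among 7 interferon regulatory factors and corepressors, 1 was called lower, against the same 4.64%. It was *IRF2BP2*, a corepressor that binds IRF2 (-0.40, adjusted *P* = 0.036).

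Of 9 tested sensors and adaptors, 1 was called lower, against 4.64% of all genes tested. *TLR3*, the endosomal receptor for double-stranded RNA, had 14.5, 17.7 and 10.7 normalized counts in the knockdown cultures and 49.0, 48.2 and 50.4 in the controls. The 3 controls were nearly alike here, as in *IFIT5*, and the log2 fold change was -1.77 (SE 0.29, edgeR adjusted *P* = 0.0032). Among 44 other interferon-induced genes tested, 2 were called lower and 1 higher, against 4.64% and 5.40% of all genes tested. *DTX3L*, a ubiquitin ligase that works with PARP9 (-0.58, adjusted *P* = 0.040), and *ZC3HAV1*, an antiviral protein that binds CG-rich RNA (-0.37, adjusted *P* = 0.040), were lower. *LAP3*, a leucine aminopeptidase, was higher (0.50, adjusted *P* = 0.015). The median log2 fold change of these 44 was -0.30, against -0.02 over all genes tested. The paralog *SAMD9L* had 7.71, 6.26 and 9.66 normalized counts in the knockdown cultures and 20.4, 29.5 and 11.3 in the controls, and its log2 fold change of -1.38 did not pass the test (adjusted *P* = 0.072). *IFIT1B* had 0 counts in each knockdown culture and 3, 1 and 1 in the controls.

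*OAS3* was the most abundant of the 10 by normalized counts, and the tested genes with the most similar library-scaled log2 counts over the 6 cultures were *SEPT5-GP1BB* (Pearson's *r* of 0.9965), *IFIH1* (0.9956) and *VPS37D* (0.9955). These are descriptions over 6 cultures that form 2 groups, and they carry no test. *IFIH1*, which encodes the RNA sensor MDA5, had 268, 264 and 243 normalized counts in the knockdown cultures and 333, 395 and 315 in the controls (log2 fold change -0.43, edgeR adjusted *P* = 0.064).

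Markers of the cell line and of other cell types were looked at beside these genes. All 9 genes listed for HEK293 were tested, among them *VIM*, *NEFL* and *PAX2*, and 0 were called, with 3 higher at an unadjusted *P* under 0.05. Of 8 leukocyte markers, *CD3E* had no count and *PTPRC* had at most 4. The normalized counts of all 8 summed to 103 to 154 in knockdown cultures and 101 to 121 in controls. Most of this sum was *CD68*, at 63.3 to 109 normalized counts, and *CD14* had 7.20 to 22.5. Neither *CD68* nor *CD14* was called. The 5 endothelial markers summed to 12.9 to 20.2 and 9.26 to 25.9 normalized counts, and the 7 fibroblast markers to 668 to 995 and 604 to 825. Most of the fibroblast sum was *COL1A1*, at 587 to 750.4 normalized counts in all cultures. *COL1A2*, another collagen chain, had 37.6, 41.7 and 116 normalized counts in the knockdown cultures and 60.2, 0 and 23.7 in control replicates 1, 2 and 3, so control replicate 2 stood apart here too, as the lowest. *NEFM*, a neurofilament of the HEK293 list, had 816, 638 and 616 normalized counts in the knockdown cultures and 300.0, 264 and 620.4 in the controls, with control replicate 3 within the knockdown range. Both genes were named after their values were seen. The part of these cell types in the differences above was not tested.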

How the data were processed

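RNA-seq was analysed for 6 HEK293 cultures, 3 per group, with groups and replicate numbers taken from the sample titles. The authors deposited raw read counts for each gene, with no normalization applied. By the submitters' processing notes, FastQC 0.11.9, Trim Galore 0.6.6, STAR 2.7.9a and featureCounts 2.0.1 were used with the hg38 build, and the paper's methods add the removal of ribosomal RNA with SortMeRNA and give other versions of STAR and Subread. The gene annotation and the handling of multi-mapping reads are not given in the sources used here, so reads shared by paralogs could be split.

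Genes were filtered with filterByExpr, scaled by TMM and compared in edgeR 4.0.16 under R 4.3.3 by its robust quasi-likelihood test with no blocking term, and *P* was adjusted by Benjamini-Hochberg. Standard errors are the size of the log2 fold change divided by the square root of F. The biological coefficient of variation was 12.4%. For 1 gene, the smallest *P* of an exact two-sided permutation test with 3 cultures per group is 0.10, so none is quoted. Totals ran from 13900965 to 16869948 counts (median 14776510), and intervals and floors cover counting error only. Alternatives were DESeq2 1.42.0 (Wald test or size factors), library sizes alone, limma-voom (limma 3.58.1), omitting the filter, a minimum of 10 counts in all cultures, a replicate block and leaving out single cultures. The tests were checked on simulated counts with a biological coefficient of variation of 12.4% for every gene and no deviating culture. That check does not cover genes whose controls spread as widely as those of *OAS1* and *ISG15*. Gene lengths and positions come from GENCODE release 44 and promoter windows from RefSeq. Figures were drawn with matplotlib 3.10.9.

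The 10 genes and the lists were chosen with earlier results of these data known. Named were the 10 genes, called genes of the 8 lists (at most 5 per list), *STAT2*, *IRF9*, interferon genes with at least 3 counts in a culture and the 3 genes most similar to the most abundant of the 10. *PDE12*, *SAMD9L* and *IFIT1B* were added after their values were seen. Some genes that this rule would name are not reported here.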

Additional observations from a re-analysis of the deposited data

How the results depend on the processing

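All 8 tested genes of the family kept a negative log2 fold change in every alternative that tested them, and 0 were called higher in any. The number called lower was 5 and became 3 without the filter on low counts, where *IFIT2* (adjusted *P* of 0.073) and *IFIT3* (0.091) lost their calls, 7 with DESeq2's Wald test and 4 with limma-voom, where *IFIT2* lost its call (0.052). Over all genes, these settings called 848, 853 and 649 lower. Leaving out 1 culture gave 1 to 9, the 9 including *OAS2*, which is not tested with all cultures. In the wider lists, 7 were lower, 15 with DESeq2's Wald test and 13 without the filter, and 1 to 27 when 1 culture was left out, and 1 was higher, with 0 to 2 when 1 culture was left out. Over all genes, 690 were lower and 804 higher, and leaving out 1 culture gave 233 to 1238 lower and 289 to 1274 higher, the fewest lower without knockdown replicate 3 and the most without control replicate 2. The causes of these changes were not tested. With the replicate number as a block, 7 of the 8 genes were called lower, *OAS1* (0.00035) and *IFIT1* (0.012) being added, along with 9 of the wider lists and 619 lower and 714 higher genes in all. The labels do not say that a replicate number marks a shared day or batch. The culture labels pair differently, with KD-1 as knockdown replicate 1 and NC-1 as control replicate 3. Over all genes tested, deviations of cultures with the same replicate number had correlations of -0.20, -0.11 and -0.04. Such correlations cannot show whether cultures shared a day or batch, which was not tested. Depth limits *OAS2* and *OASL*, with at most 9 and 7 counts in a knockdown culture.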

Other observations

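Genes of the wider list that were picked after their values were seen had the same order of controls as *OAS1* and *ISG15*. *IFITM1*, which blocks viral entry, had 52.1, 35.5 and 36.5 normalized counts in the knockdown cultures and 125, 342 and 43.2 in control replicates 1, 2 and 3. *IFI6* had 53.0, 57.4 and 67.6 normalized counts in the knockdown cultures and 132, 475 and 89.5 in the controls. *RSAD2*, which encodes the antiviral enzyme viperin, had 15.4, 49.0 and 26.8 in the knockdown cultures and 66.3, 183 and 24.7 in the controls. Control replicate 3 lay within the knockdown range for *IFITM1* and *RSAD2* and above it for *IFI6*. None of these genes was called, with adjusted *P* of 0.11, 0.092 and 0.19 from edgeR. *MX1*, another antiviral effector induced by interferon, had 66.5, 78.2 and 79.4 normalized counts in the knockdown cultures and 72.5, 72.3 and 52.5 in the controls, so control replicate 2 did not stand apart for every interferon-induced gene.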
